A study of Arabidopsis thaliana with 27 samples.

Results

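In *Arabidopsis thaliana* line JR11-2, a *GAL4-VP16* enhancer trap makes leaf cells fluoresce green through a form of GFP (green fluorescent protein), most of all the spongy mesophyll near the lower surface. The comparison described here set GFP-negative against GFP-positive protoplasts of this line and rests on 6 of the 27 libraries of the series, chosen by their labels as JR11-2 leaf protoplasts made without transcription inhibitors at low light. The 3 GFP-negative libraries are labelled palisade cells and the 3 GFP-positive libraries are labelled reference cells. All plants of these 6 libraries were JR11-2 in the Col-0 background, grown for 17 d in constant white light of 50 μE m-2 s-1. All cells were sorted by fluorescence from protoplasts of first true leaves, with chlorophyll required in both gates. Each of 3 protoplast pools, D, E and F, gave 1 library of each population. Each library therefore held cells of many plants. JR11-2 is 1 insertion line, and its GFP-negative gate took every chlorophyll-containing cell without GFP, palisade cells among them but not alone. The reporter has no row among the nuclear genes analysed, so the gate could be checked only through other genes. A second line served for comparison, *IQD22*_pro_:*GUS-mCit* (the IQD22 reporter line), in which a palisade-active promoter drives mCitrine. Its 6 libraries without inhibitors at low light (pools A, B and C) were fluorescent palisade cells and non-fluorescent reference cells. A further 6 (pools G, H and I) were the same populations prepared with inhibitors. All of these came from Col-0 plants carrying the reporter, also 17 d old and grown at 50 μE m-2 s-1.

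A leaf blade has an adaxial (upper) and an abaxial (lower) side, set early in development by antagonistic transcription factors, with HD-ZIP III proteins on the adaxial side and KANADI and YABBY proteins on the abaxial side. Palisade mesophyll forms a layer of tall, densely packed photosynthetic cells under the upper epidermis, and spongy mesophyll below it consists of rounded cells with large air spaces. Bundle sheath cells surround the veins, and in Arabidopsis they and their neighbours are known for sulfur metabolism and for aliphatic glucosinolates, the methionine-derived defense compounds of the Brassicaceae.

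The 6 libraries held 20185965 to 26971461 counts on genes in GFP-negative cells and 15431767 to 27247510 in GFP-positive cells, and the shallowest was GFP-positive pool F. A count of 3 in 1 library, used as the floor for detection, equals 0.111 to 0.149 CPM (counts scaled to a common library size) in GFP-negative and 0.110 to 0.194 CPM in GFP-positive libraries. Over all genes tested, GFP-negative and GFP-positive cells of 1 pool differed by a root mean square of 0.332 (D), 0.324 (E) and 0.381 (F) on the log2 scale. Libraries of the same population were closer than that between pools D and E (0.302 for GFP-negative and 0.303 for GFP-positive cells) and farther apart between pools D and F (0.497 and 0.469). All tests were made within pools, as the study did, with edgeR's quasi-likelihood test and Benjamini-Hochberg adjustment (the adjusted p is called FDR below). Of 20031 nuclear genes tested, 143 (0.714%) were called higher in GFP-negative cells and 289 (1.44%) were called lower, with FDR below 0.05 and a fold-difference above 2. By FDR alone, 1947 genes (9.72%) were higher and 2025 (10.1%) were lower. Of the 432 called genes, 425 had the same sign in all 3 pools, and in 356 the values of the 2 populations did not overlap, as in 3202 (16.0%) of all genes tested. Only 29 genes were called more than 4-fold higher and 52 more than 4-fold lower. In such bulk samples, fewer cells of a type and less RNA per cell cannot be told apart.

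The labels were first set against marker genes. *IQD22* itself (AT4G23060), whose promoter marks the palisade in the other line, had 79.9, 82.5 and 100.1 CPM in GFP-negative cells of pools D, E and F, against 64.5, 72.7 and 72.7 CPM in GFP-positive cells. The populations did not overlap, but the log2 fold change was 0.31 ± 0.06 (SE, FDR = 0.00102), below the fold limit. *STOMAGEN* (AT4G12970), a peptide that mesophyll secretes to promote stomatal formation, had 6.55, 4.95 and 4.43 CPM in GFP-negative cells and 3.22, 1.25 and 2.02 CPM in GFP-positive cells, a 2.53-fold difference (FDR = 1.38e-05). *CORI3* (AT4G23600), a cystine lyase gene taken as a spongy mesophyll marker, had 81.4, 73.4 and 94.7 CPM in GFP-negative cells, against 250.8, 193.8 and 216.1 CPM in GFP-positive cells. It was thus 2.65-fold higher in GFP-positive cells (log2 fold change −1.41 ± 0.07, FDR = 2.58e-11), with no overlap. The paper picked *CORI3* among genes lower in sorted palisade cells of the other line in this series, and then made a promoter reporter.

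Abaxial identity genes were lower in GFP-negative cells as a group, unevenly between members. Of 9 tested, 2 were called lower and none higher, 6 were lower and 1 higher by FDR alone, and the median log2 fold change was −0.45, against −0.01 over all genes tested. *KAN3* (AT4G17695, chromosome 4, 9847933 to 9850927 in TAIR10.1), a KANADI gene, had 0.923, 1.19 and 0.858 CPM in GFP-negative cells and 5.42, 5.63 and 6.41 CPM in GFP-positive cells, which is 5.75-fold (log2 fold change −2.52 ± 0.19, FDR = 4.69e-09). *YAB3* (AT4G00180), a YABBY gene, had 6.46, 7.56 and 5.48 CPM in GFP-negative cells and 23.5, 23.5 and 19.9 CPM in GFP-positive cells, which is 3.43-fold (log2 fold change −1.78 ± 0.09). In both genes the 2 populations were far apart in every pool. The other members differed less, with *KAN1* at −0.87 and *YAB1* at −0.34 on the log2 scale, and *YAB5* was higher in GFP-negative cells at 0.48. Without pool F, 4 members were called lower. The adaxial list held 1 called gene among 9 tested, *ATHB8*, an HD-ZIP III gene of vascular precursor cells, which was lower in GFP-negative cells (0.336, 1.08 and 0.0953 CPM) than in GFP-positive cells (1.18, 1.62 and 1.83 CPM), by −1.58 on the log2 scale in all pools and −2.68 without pool E. *HAT3*, an HD-ZIP II gene that acts on the adaxial side, was 0.92 higher on the log2 scale without passing the fold limit, and the median of the adaxial list was −0.12. *ATHB8* was also the called gene of the xylem and procambium list, in which 11 genes were tested with a median of −0.57, and 3 of them were called lower without pool E.

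Markers of other cell types were read at the same time, because the GFP-negative gate admits any green cell that lacks GFP. All 13 phloem genes tested had a log2 fold change above 0 (median 0.59), 3 were called higher and 7 were higher by FDR alone. Their summed level was 43.9, 105.5 and 71.2 CPM in GFP-negative cells of pools D, E and F and 34.3, 61.7 and 32.9 CPM in GFP-positive cells, so the ranges overlapped between pools while every pool had more in GFP-negative cells. *SUC2*, the sucrose transporter of companion cells, had 6.51, 16.3 and 12.8 CPM in GFP-negative and 3.83, 7.37 and 4.95 CPM in GFP-positive cells, and *SEOR1*, a sieve element protein gene, had 1.59, 2.53 and 2.67 CPM and 0.493, 1.44 and 0.244 CPM in the same order. The third called member was *PP2-A1*, a phloem lectin gene (log2 fold change 1.08). The pool decided these calls, since 5 members were called without pool D and 1 without pool F, where *SUC2* was at 1.0 and *PP2-A1* at 0.76 on the log2 scale. *SEOR1* was at 1.56 in all pools and 2.35 without pool E.

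In the epidermis list, 1 of 14 genes tested was called higher and 3 were higher by FDR, with a median of 0.61. Leaving out pool D gave 3 called members and leaving out pool F gave 2. The summed level, 172.7, 161.1 and 114.3 CPM in GFP-negative and 92.7, 72.8 and 56.6 CPM in GFP-positive cells, came mostly from *ANL2*, described below with the higher genes. The defining genes *ATML1* and *PDF2* stood at 0.381 to 1.97 CPM in GFP-negative and 0.244 to 1.02 CPM in GFP-positive cells. *PDF1* and *GL2* had 0 counts in all GFP-negative libraries and 1 count in all GFP-positive libraries together. In the guard cell list, *FAMA*, *MUTE*, *SPCH*, *SLAC1*, *EPF1* and *SCAP1* were at 4 counts or fewer over the 3 libraries of each population and *MYB60* at 12 in GFP-negative cells and 2 in GFP-positive cells. None of 7 guard cell genes tested was called. *TGG1*, a myrosinase gene of guard cells and phloem idioblasts, made up most of that list's sum (36.7, 107.2 and 74.6 CPM in GFP-negative cells, 28.1, 68.6 and 28 CPM in GFP-positive cells) and was 0.84 higher on the log2 scale. Whether these cells contributed to the called genes was not tested.

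The plainest pattern was in aliphatic glucosinolate synthesis, where every one of the 19 listed genes was measured and had a log2 fold change below 0. GFP-negative cells had less of 12 of them by the call rule and of 15 by FDR, and none was higher. The median log2 fold change was −1.51, and within pools the median ratios were −1.47 (D), −0.75 (E) and −1.73 (F). The list summed to 355.8, 327.0 and 286.5 CPM in GFP-negative cells and to 857.7, 522.9 and 680.5 CPM in GFP-positive cells, so the smaller difference of pool E came with a lower GFP-positive value.

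The pathway begins with elongation of methionine. *BCAT4* (AT3G19710), which deaminates methionine in the first step, had 8.23, 9.01 and 6.24 CPM in GFP-negative cells and 62.9, 29.8 and 47.8 CPM in GFP-positive cells, which is 5.71-fold (log2 fold change −2.51 ± 0.15, FDR = 2.04e-10). *MAM1* (AT5G23010), the condensing enzyme of the elongation cycle, had 29.1, 26.2 and 16.6 CPM in GFP-negative and 158.5, 80.7 and 129.1 CPM in GFP-positive cells, which is 4.97-fold. The populations did not overlap in either gene. *IPMI2* and *IMD1*, an isomerase and dehydrogenase of the cycle, were 4.76-fold and 3.14-fold higher in GFP-positive cells, and the plastid carrier *BAT5* 4.12-fold. Without pool E, *BAT5* was at −2.75 instead of −2.04 on the log2 scale. *MAM3* and *IIL1*, which act in the same cycle, were not separated: *MAM3* had 1.64, 7.19 and 2.29 CPM in GFP-negative and 3.3, 3.97 and 3.79 CPM in GFP-positive cells, and *IIL1*, which also serves leucine synthesis, was at −0.02 ± 0.06 on the log2 scale. Genes outside the list but among the most changed were *IPMI2*, *AOP2*, *FMO GS-OX3* and *AK3*. *AK3*, an aspartate kinase gene of the pathway toward methionine, was 4.75-fold higher in GFP-positive cells (13.2, 11 and 8.82 CPM in GFP-negative, 64.1, 36.3 and 61.5 CPM in GFP-positive cells).

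The core structure is then made by cytochromes P450 and conjugating enzymes. *CYP79F1* (AT1G16410), which turns elongated methionine into aldoximes, had 5.08, 4.95 and 2.57 CPM in GFP-negative cells and 34.4, 13.5 and 20.7 CPM in GFP-positive cells, which is 5.13-fold. Its tandem copy *CYP79F2* was near the floor, at 0.126, 0.819 and 0.0953 CPM in GFP-negative and 0.493, 0.529 and 0.305 CPM in GFP-positive cells, and no difference was detectable at this depth. These neighbouring genes are similar in sequence, so the split of reads between them is uncertain. *CYP83A1* (AT4G13770), the next enzyme, had 45.7, 36.2 and 33.1 CPM in GFP-negative cells and 126.8, 78.3 and 117.1 CPM in GFP-positive cells, which is 2.76-fold (log2 fold change −1.46 ± 0.09, FDR = 2.74e-10). The glutathione transferase genes *GSTU20* and *GSTF11* were called lower in GFP-negative cells (4.71-fold and −1.51 on the log2 scale). *SUR1*, *SOT17* and *SOT18*, for C-S cleavage and sulfation, were lower by FDR alone at −0.87, −0.94 and −0.81, and *UGT74C1* did not pass at −0.24 on the log2 scale.

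Side chain genes and regulators moved the same way. *AOP2* (AT4G03060, chromosome 4, 1351688 to 1354096), which RefSeq annotates as a transcribed pseudogene in Col-0, was the gene with the largest decrease among called genes of at least 5 CPM. It had 1.18, 1.49 and 0.858 CPM in GFP-negative cells and 14.7, 6.46 and 13.7 CPM in GFP-positive cells, a 9.20-fold difference (log2 fold change −3.20 ± 0.22, FDR = 1.59e-09). *FMOGS-OX1* and *FMO GS-OX3*, S-oxygenases, were at −1.87 and −2.21. Without pool E, *AOP2* was at −3.79 and *FMO GS-OX3* at −2.8. Of the regulators, *MYB28* had 9.28, 11.6 and 8.48 CPM in GFP-negative and 22.7, 18.3 and 21.2 CPM in GFP-positive cells. It was 2.1-fold higher in GFP-positive cells, close enough to the limit that it was not called without pool D or pool F (−0.96 and −0.97). *MYB29* and *MYB76* were called at under 2 CPM. *MYB29* lost its call without pool D (−1.62), and *MYB76* lost it whichever pool was left out (−1.91, −1.91 and −2.12 without D, E and F).

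Promoters of 3 genes of the pathway, 2 of them called lower, are shown as examples, picked after the search, of those with an AC element, a binding motif of MYB proteins (ACCTACC or ACCAACC on either strand), within the 250 bases before the annotated start. Capitals mark the AC elements, in *CYP83A1* also a G-box (CACGTG) and in *BAT5* also an I-box (GATAAG), all found by a search for 6 motifs. Sequences are from RefSeq (TAIR10.1) in the direction of transcription, at chr4:7992430-7992679 on the minus strand for *CYP83A1*, chr4:7210557-7210806 on the plus strand for *BAT5* and chr1:5604794-5605043 on the plus strand for *CYP79F2*.
CYP83A1: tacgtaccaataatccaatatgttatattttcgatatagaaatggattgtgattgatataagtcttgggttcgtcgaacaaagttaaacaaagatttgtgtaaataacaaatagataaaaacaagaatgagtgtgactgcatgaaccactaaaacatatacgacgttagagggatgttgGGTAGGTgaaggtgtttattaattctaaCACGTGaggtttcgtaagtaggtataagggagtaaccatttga
BAT5: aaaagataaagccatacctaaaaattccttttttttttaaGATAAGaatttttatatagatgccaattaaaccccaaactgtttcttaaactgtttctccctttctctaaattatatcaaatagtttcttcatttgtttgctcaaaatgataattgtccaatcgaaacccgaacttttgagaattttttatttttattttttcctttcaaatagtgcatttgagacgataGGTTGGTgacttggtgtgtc
CYP79F2: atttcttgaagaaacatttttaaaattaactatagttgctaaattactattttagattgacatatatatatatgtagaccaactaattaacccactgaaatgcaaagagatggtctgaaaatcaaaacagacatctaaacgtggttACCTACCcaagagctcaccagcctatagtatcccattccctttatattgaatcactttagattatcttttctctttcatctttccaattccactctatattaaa
An AC element was present in 6 of the 19 promoters of the pathway (31.6%, exact 95% interval 12.6 to 56.6, counting error only) when windows of 300 bases, 250 before and 50 after the start, were read, against 945 of 20003 promoters of all genes tested (4.72%). In the 200 bases before the start it was present in 5 of the 19 (26.3%), against 3.25% of all. Among the genes called lower the share was 7.61% and among those called higher 1.4%. A match is a description of letters and not of a bound site.

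**Figure D1:**
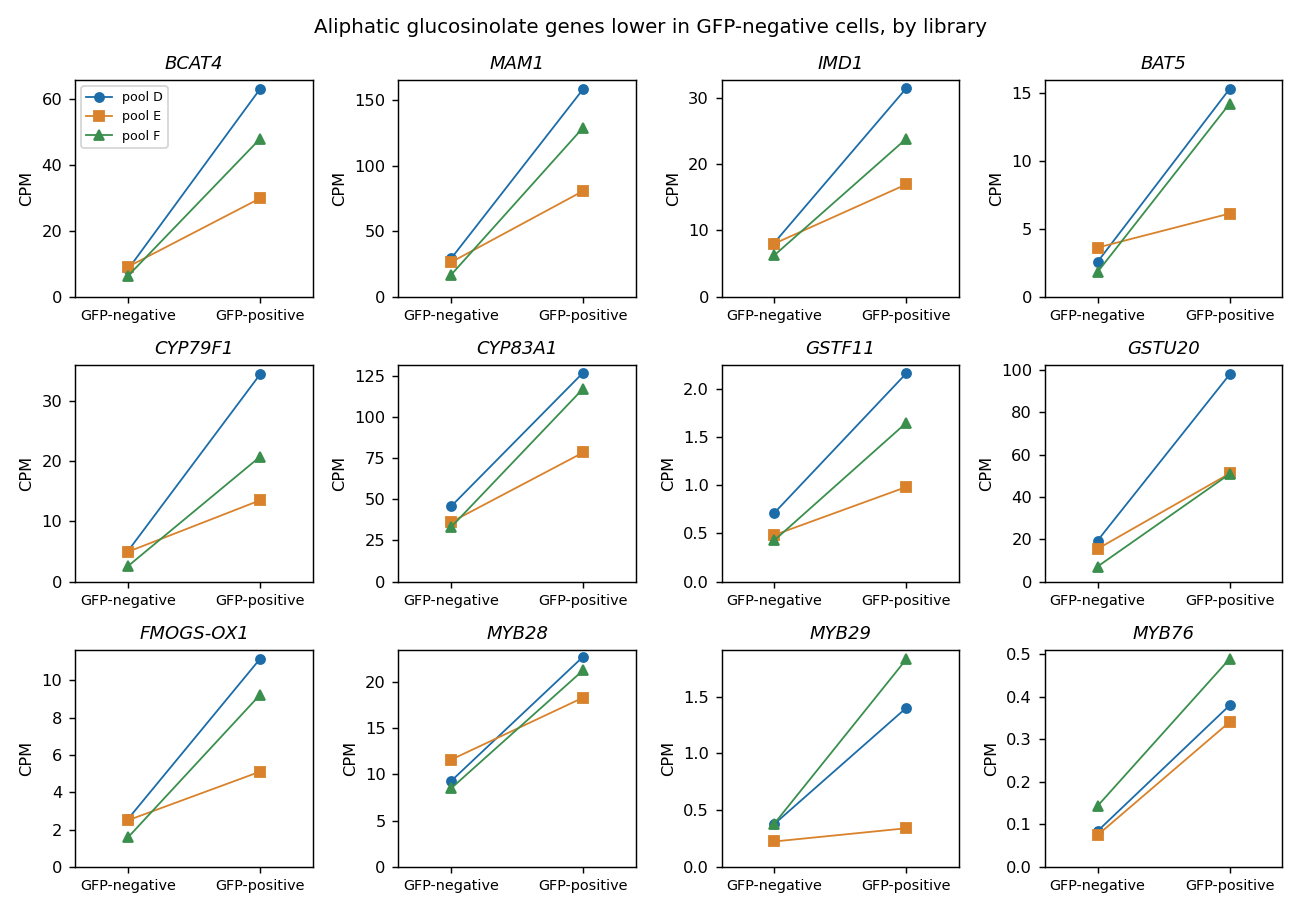
CPM of the 12 called aliphatic glucosinolate genes in each library (linear axes from 0), with GFP-negative libraries on the left of GFP-positive libraries and lines joining the libraries of 1 pool. *BCAT4* lies between 6.24 and 9.01 CPM in the GFP-negative libraries and between 29.8 and 62.9 CPM in the GFP-positive libraries.

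The tryptophan-derived indolic branch differed less. Of 12 genes tested, 2 were called lower in GFP-negative cells and 8 were lower by FDR, with a median log2 fold change of −0.28. *MYB34*, a regulator of this branch, had 2.69, 2.72 and 2.38 CPM in GFP-negative and 8.80, 6.80 and 7.70 CPM in GFP-positive cells, which is 2.96-fold, with no overlap. *CYP79B3*, which makes indole-3-acetaldoxime, was 2.19-fold higher in GFP-positive cells but was not called without pool D or pool F, at −0.96 and −0.94 on the log2 scale. The regulator *MYB51* and the modifying enzyme gene *CYP81F2* were at −0.10 and 0.04.

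Of the 5 genes of the bundle sheath list, 3 were called lower in GFP-negative cells and none higher, with a median of −1.07. *SULTR2;2*, a low-affinity sulfate transporter gene, had 17.42, 14.5 and 9.72 CPM in GFP-negative and 42.8, 26.8 and 25.2 CPM in GFP-positive cells, and *THA2*, a threonine aldolase gene, had 12.8, 12 and 10.5 CPM and 30.6, 26.1 and 28 CPM in the same order. Neither overlapped between populations (2.26-fold and 2.39-fold). *THA2*, like *CORI3*, was picked by the paper from sorted cells of the other line in this series. *SULTR2;1* overlapped through pool E, where GFP-negative cells had 13.4 CPM and GFP-positive cells 12.1 CPM, and it was not called without pool D or pool F (−0.79 and −0.67), with −1.07 in all pools and −1.89 without pool E. *SCR*, a regulator of bundle sheath fate, was at −0.03.

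Aquaporin genes, encoding water channels of plasma membrane (PIP) and vacuole (TIP), were mostly lower. Of 15 tested, 13 were lower and 2 higher by FDR, 3 were called lower, and the median was −0.50. *PIP2;2* had 40.4, 36.4 and 20.6 CPM in GFP-negative and 92.2, 95.7 and 67.3 CPM in GFP-positive cells, which is 2.66-fold (FDR = 9.08e-11). *PIP2;7* had 42.8, 39.2 and 14.0 CPM in GFP-negative and 87.0, 76.6 and 33.4 CPM in GFP-positive cells, a fold-difference of 2.08, and it was not called without pool F (−0.99 on the log2 scale). The groups overlapped in *PIP2;7* only because pool F was low in both. *PIP2;8* was called at under 1 CPM and not without pool D or pool E (−1.65 and −2.88). The 2 genes that were higher were *PIP2;6* (0.28) and *TIP2;2* (0.60), and the related copies *PIP2;2* and *PIP2;3* may share reads.

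The called genes of highest CPM on the lower side, a ranking not corrected for length, had metabolic and transport functions. *CAT3*, a catalase gene, had 790.8, 1117 and 1581 CPM in GFP-negative and 1799, 2286 and 2756 CPM in GFP-positive cells, apart in every pool and in all libraries. Its log2 fold change of −1.01 ± 0.06 lies at the fold limit and was −0.92 without pool D and −1.0 without pool E, where it was not called. *SBP2*, a selenium-binding protein gene, had 89.0, 90.2 and 86.7 CPM in GFP-negative and 227.0, 182.4 and 229.3 CPM in GFP-positive cells (2.39-fold). The others were *CORI3*, *DJ1A* (−1.06) and *ABCC3*, an ABC transporter gene (−1.04). *DJ1A* was −0.98 without pool D and *ABCC3* −0.94 without pool F.

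Among the most changed lower genes outside these groups were *CHIB*, encoding a basic chitinase, *IQD21*, of the same calmodulin-binding family as *IQD22*, and *NIK2*, a receptor kinase gene. *CHIB* had 0.714, 1.42 and 1.57 CPM in GFP-negative and 5.42, 6.39 and 6.05 CPM in GFP-positive cells, and *IQD21* had 1.43, 2.79 and 1.62 CPM and 10.8, 9.90 and 6.47 CPM in the same order. *NIK2* was at −2.11. *IQD22* and *IQD21* thus differed in opposite directions. Of 20 auxin genes tested, 2 were called higher and 3 lower, with a median of −0.14. The synthesis genes *TAA1* and *YUC5* were among those called lower. *TAA1* had 1.26, 1.49 and 0.715 CPM in GFP-negative and 2.35, 2.87 and 1.95 CPM in GFP-positive cells. *YUC5* reached 0.112 CPM in 1 GFP-negative library and 0.183 to 0.531 CPM in GFP-positive libraries. *TAA1* was at −0.92 without pool F, and *YUC5* was not called without pool D (−1.84) and was at −6.02 without pool E.

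**Figure D2:**
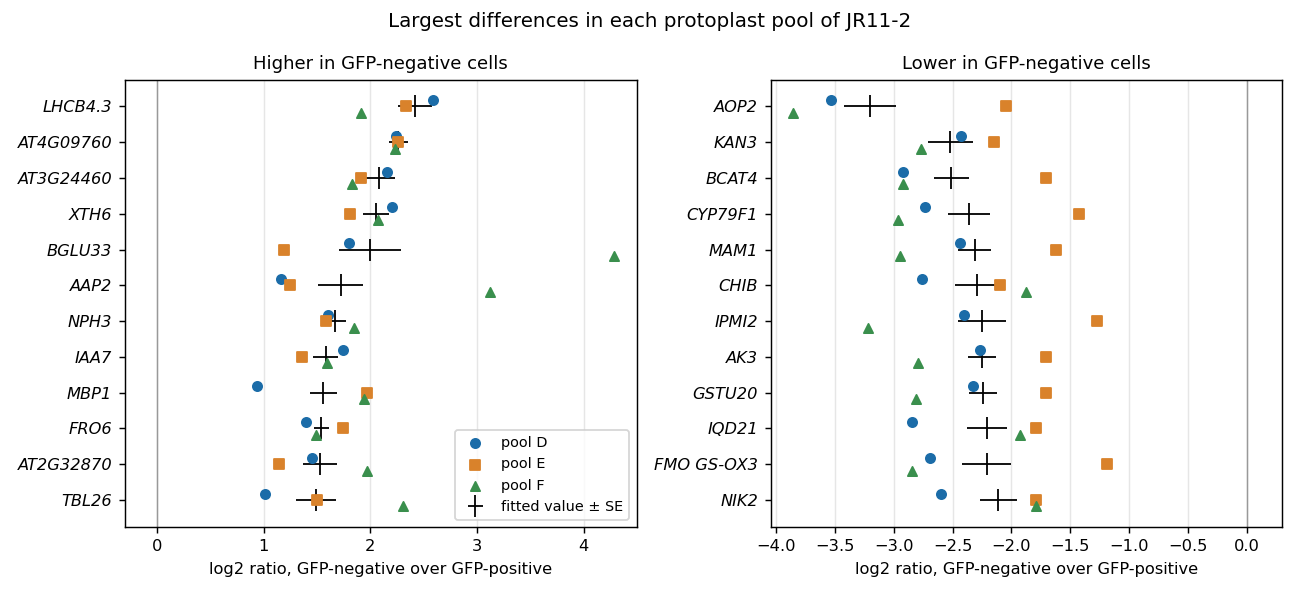
The log2 ratio of GFP-negative to GFP-positive CPM within each pool for the most changed genes, 1 point per pool and 1 row per gene, with a pseudocount of 0.1 CPM, and the fitted value ± SE as a cross. *AOP2* lies at −3.53 (pool D), −2.05 (E) and −3.85 (F), and *LHCB4.3* at 2.59, 2.33 and 1.91. *BGLU33* has the widest spread on the higher side, at 1.8, 1.19 and 4.28.

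On the higher side, photosynthesis genes shifted together by a small amount. Of 53 nuclear genes for antenna proteins, photosystem subunits and carbon fixation, 47 were higher and 1 lower by FDR, 52 were higher in every pool, and the median log2 fold change was 0.31. Just 1 passed the fold limit. The list summed to 178100, 140500 and 95540 CPM in GFP-negative cells and to 150100, 122700 and 75040 CPM in GFP-positive cells, so the pools differed by more than the populations while each pool had more in GFP-negative cells. The gene that was lower was *LHCB1.4* (−0.46), 1 of several nearly identical antenna genes between which reads can be exchanged. *PSBS*, for a protein of energy dissipation, was at 0.55 and *CA1*, a carbonic anhydrase gene, at 0.75.

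The called member was *LHCB4.3* (AT2G40100, chromosome 2, 16745628 to 16747424), a form of the minor antenna protein CP29, which also had the largest increase among called genes of at least 5 CPM. It had 14.7, 4.58 and 6.48 CPM in GFP-negative cells and 2.35, 0.832 and 1.65 CPM in GFP-positive cells, a 5.35-fold difference (log2 fold change 2.42 ± 0.16, FDR = 1.36e-09). *FRO6* (AT5G49730), a ferric reductase gene of green tissue, had 347.0, 233.8 and 161.1 CPM in GFP-negative and 131.8, 70.0 and 57.4 CPM in GFP-positive cells, 2.91-fold higher with no overlap (FDR = 2.74e-12). The promoters of both are shown, *LHCB4.3* for the AATATC core of the evening element of clock-controlled genes and *FRO6* for a G-box and 2 I-boxes, both motifs of light-regulated genes (capitals). They lie at chr2:16745378-16745627 on the plus strand and chr5:20204596-20204845 on the minus strand in TAIR10.1 (RefSeq).
LHCB4.3: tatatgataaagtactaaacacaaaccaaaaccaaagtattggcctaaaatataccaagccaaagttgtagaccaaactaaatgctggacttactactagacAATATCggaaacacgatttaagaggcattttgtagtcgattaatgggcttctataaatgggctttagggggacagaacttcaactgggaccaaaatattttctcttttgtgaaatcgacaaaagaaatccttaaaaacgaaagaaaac
FRO6: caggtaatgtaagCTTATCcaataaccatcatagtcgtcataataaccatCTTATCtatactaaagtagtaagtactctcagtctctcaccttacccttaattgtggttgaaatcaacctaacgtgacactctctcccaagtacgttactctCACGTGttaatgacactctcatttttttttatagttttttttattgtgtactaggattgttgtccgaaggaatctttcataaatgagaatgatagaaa
AATATC occurred in 38.5% of promoters of genes called higher, 27% of those called lower and 28% of all promoters. For the G-box the shares were 11.9%, 6.57% and 8.83%, and for the I-box 16.8%, 12.1% and 14.9%. In the photosynthesis list 26 of 53 promoters held an I-box (49.1%, exact 95% interval 35.1 to 63.2), and in the 200 bases before the start 13 did (24.5%, against 10.1% of all promoters). The remaining motifs, the DRE core CCGAC (15.4%, 12.8% and 16.6%) and the W-box TTGACC or TTGACT (25.2%, 26% and 33.0%), were not more frequent among called genes than among all.

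Several other genes called higher were evenly changed in the 3 pools. AT4G09760 had 30.9, 31.7 and 28.2 CPM in GFP-negative and 6.45, 6.54 and 5.92 CPM in GFP-positive cells, which is 4.80-fold, with a log2 ratio of 2.24, 2.26 and 2.23 in pools D, E and F. *NPH3*, a phototropin signalling gene, had 19.5, 22.5 and 20.7 CPM in GFP-negative and 6.37, 7.48 and 5.68 CPM in GFP-positive cells (3.19-fold), and *IAA7*, an Aux/IAA repressor gene, had 12.3, 12.8 and 13.3 CPM and 3.60, 4.95 and 4.34 CPM in the same order (2.98-fold). *IAA1*, the other auxin gene called higher, lost its call without pool F (0.83). AT4G19200 had 123.5, 176.3 and 181.6 CPM in GFP-negative cells, against 52.8, 80.6 and 84.3 CPM in GFP-positive cells. AT4G09760, *NPH3*, *IAA7* and AT4G19200 were apart in every library.

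Other called genes differed in level between pools. *XTH6*, a xyloglucan-modifying wall enzyme gene, had 24.5, 16.6 and 7.0 CPM in GFP-negative and 5.27, 4.65 and 1.59 CPM in GFP-positive cells, 4.14-fold higher. It was the only gene called higher of 16 wall-loosening genes tested (median −0.02), while *XTH15* and *XTH16* were called lower, *XTH16* not without pool D (−1.13). *NCED4*, a carotenoid cleavage gene, had 377.8, 264.0 and 136.7 CPM in GFP-negative and 195.8, 127.3 and 61.1 CPM in GFP-positive cells, 2.07-fold higher. *ANL2*, an HD-ZIP IV gene best known from the epidermis, had 127.3, 111.6 and 81.5 CPM in GFP-negative and 53.5, 38.0 and 25.5 CPM in GFP-positive cells, 2.79-fold higher (FDR = 2.83e-11). For *XTH6*, *NCED4* and *ANL2*, each pool had more in GFP-negative cells, and only in *NCED4* did pool F of GFP-negative cells fall within the range of GFP-positive cells. *CLV1*, a receptor kinase gene chosen after its values were seen, was 2.59-fold higher (54.9, 51.4 and 32.5 CPM in GFP-negative, 22.3, 18.18 and 13.1 CPM in GFP-positive cells).

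The ratios of some called genes differed more between pools. *MBP1*, a myrosinase-binding protein gene, had 41.3, 26.4 and 53.1 CPM in GFP-negative and 21.5, 6.65 and 13.8 CPM in GFP-positive cells (2.94-fold). *BGLU18*, a β-glucosidase gene of leaf endoplasmic reticulum bodies, had 126.4, 62.6 and 101.9 CPM in GFP-negative and 87.1, 19.6 and 35.4 CPM in GFP-positive cells. Its ratio in pool D was 0.54 on the log2 scale, against 1.67 in pool E and 1.52 in pool F, and without pool E it was at 0.98 and not called. *BGLU33* and its chromosomal neighbour AT2G32870 were both called higher, with *BGLU33* at 3.02, 6.0 and 6.58 CPM in GFP-negative and 0.796, 2.57 and 0.244 CPM in GFP-positive cells. Without pool E, *BGLU33* was at 2.91 instead of 2.0 on the log2 scale.

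Phenylpropanoid genes, which make UV-absorbing sinapate esters and lignin precursors, gave no call. Of 27 tested, 9 were higher and 4 lower by FDR, with a median of 0.16. The differences that passed FDR and came nearest the fold limit were in the branch to sinapoylmalate. *UGT84A2*, a sinapate glucosyltransferase gene, had 67.7, 57.2 and 103.3 CPM in GFP-negative and 36.7, 28.8 and 48.6 CPM in GFP-positive cells (log2 fold change 0.99 ± 0.06), *SNG1*, the sinapoylglucose malate transferase gene, was at 0.67, *OMT1* at 0.69 and *FAH1* at 0.53. The 10 flavonoid genes tested gave none by either rule, and *PAL2*, *C4H* and *4CL1*, at the entry of the pathway, were at −0.10, −0.22 and −0.10. Not all entry genes were flat or lower. *PAL1*, also at the entry, and *HCT*, a later step, had reporters that the paper saw active in the palisade. Both belong to the 9 such genes listed below, each higher by FDR at 0.31 or more on the log2 scale.

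Genes that respond to wounding, heat and protoplast preparation were mostly lower in GFP-negative cells, by small amounts. Of 22 early stress transcription factor genes, 19 had a log2 fold change below 0 and 11 were lower by FDR. None was called, and the median was −0.16, while over all genes tested 51.3% were below 0 and 10.1% were lower by FDR. All 12 heat shock genes were below 0 and 9 were lower by FDR, with a median of −0.35. Of 26 jasmonate genes, 21 were below 0, 11 were lower and 1 higher by FDR, and the median was −0.15. The called members were *HSP18.2*, which was not called without pool F (−0.94), and *CORI3*. The 15 salicylate and defense genes included 1 called lower, *CHIB*, and 6 lower by FDR. Jasmonate genes summed to 22300 to 25240 CPM in GFP-negative and 26110 to 26680 CPM in GFP-positive cells, and the salicylate and defense list to 242 to 318.8 CPM and 282.4 to 346 CPM in the same order.

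**Figure D3:**
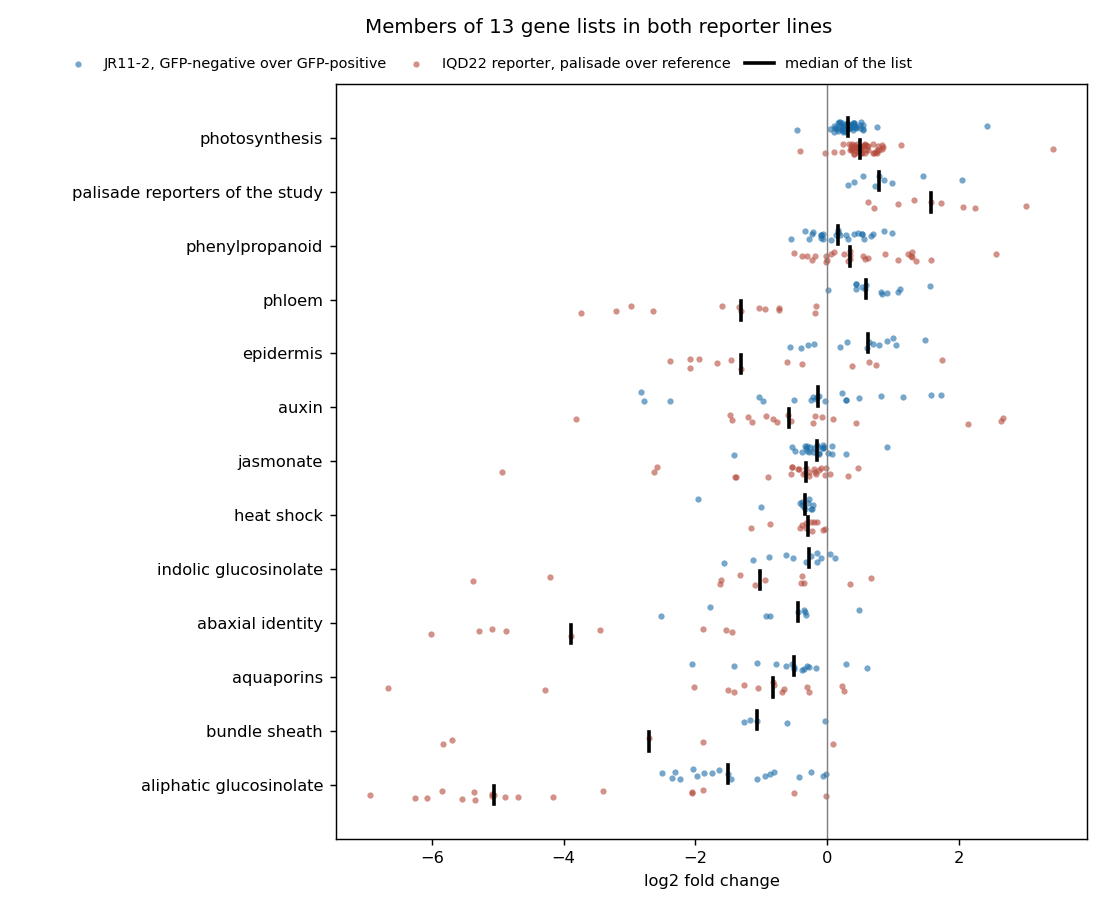
Log2 fold changes of all tested members of each gene list in JR11-2 (blue, GFP-negative over GFP-positive) and in the IQD22 reporter line (red, palisade over reference), 1 point per gene, with the median of each list as a bar. In JR11-2 the aliphatic glucosinolate list has a median of −1.51 and the photosynthesis list of 0.31, against −0.01 over all genes tested.

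The other line asks a related question with an independent marker, since there the palisade cells themselves fluoresce. Of 19912 genes tested in the IQD22 reporter line without inhibitors, 407 (2.04%) were called higher and 1335 (6.7%) lower in palisade cells. With inhibitors the calls were 403 (2.13%) and 1055 (5.56%) of 18963. Those 403 and 1055 genes were used as lists because their libraries share no pool with JR11-2. Of the 398 palisade-higher genes tested in JR11-2, 60 were called higher and 11 lower in GFP-negative cells, 68.3% had a log2 fold change above 0 (48.7% of all genes), and the median was 0.34. Of the 1046 palisade-lower genes, 199 were called lower and 34 higher, 81.5% were below 0 (51.3% of all genes), and the median was −0.55. Over all genes tested, 0.714% were called higher and 1.44% lower. Calls against the direction of the other line were thus also more frequent in both lists than over all genes. A list of 9 genes held *IQD22* and those genes whose promoter reporters were seen active in the palisade, without others made as reporters, such as *LHCB4.3*, *ANL2* and AT4G19200. These genes were picked on libraries of this series and are no separate evidence of direction. All 9 were higher by FDR (median 0.78), and *XTH6* and AT1G70985 were called.

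The size of the difference was compared between the lines as an interaction of line and population over the 12 libraries without inhibitors. Line and pool cannot be told apart in this test. Of 20843 genes, 1532 (7.35%) had a higher log2 fold change in JR11-2 and 1638 (7.86%) a lower one (FDR below 0.05, edgeR's quasi-likelihood test). In the aliphatic glucosinolate list the difference was smaller in JR11-2 for 17 of 19 genes and larger for none, with a median of −1.51 in JR11-2 and −5.06 in the IQD22 reporter line. *CYP83A1* averaged 38.3 ± 6.57 CPM in GFP-negative and 107.4 ± 25.6 CPM in GFP-positive cells of JR11-2, against 2.80 CPM in palisade and 200.8 CPM in reference cells of the other line (SD, n = 3 each, CPM scaled within each line). The gap was thus wider there at both ends, and more so at the low end. *PIP2;2* and *SULTR2;2* also had smaller differences in JR11-2, with interaction estimates of 2.85 and 4.51. In *CAT3* (2.76) the gap was wider in the other line at the low end alone, with means of 1163 CPM in GFP-negative and 2281 CPM in GFP-positive cells, against 138.7 CPM in palisade and 1855 CPM in reference cells. Of 53 photosynthesis genes, 17 had a lower log2 fold change in JR11-2 and none a higher one. Without the second replicate of each line (pools B and E), 1722 genes passed the interaction test instead of 3170.

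Within the abaxial list, 8 of 9 genes had a smaller difference in JR11-2. *KAN3* was the exception, at −2.52 in JR11-2 and −1.53 in the IQD22 reporter line (interaction −1.01 ± 0.30, FDR = 0.0183). *YAB5* stood at the other end, with 7.35 ± 0.445 CPM in GFP-negative and 5.26 ± 0.506 CPM in GFP-positive cells of JR11-2, against 0.268 CPM in palisade and 10.5 CPM in reference cells (interaction 5.76 ± 0.26, FDR = 3.33e-15). *YAB1* and *YAB2* were like *YAB5*, with 4.52 and 5.66. KANADI and YABBY genes therefore did not follow 1 pattern between the lines.

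**Figure D4:**
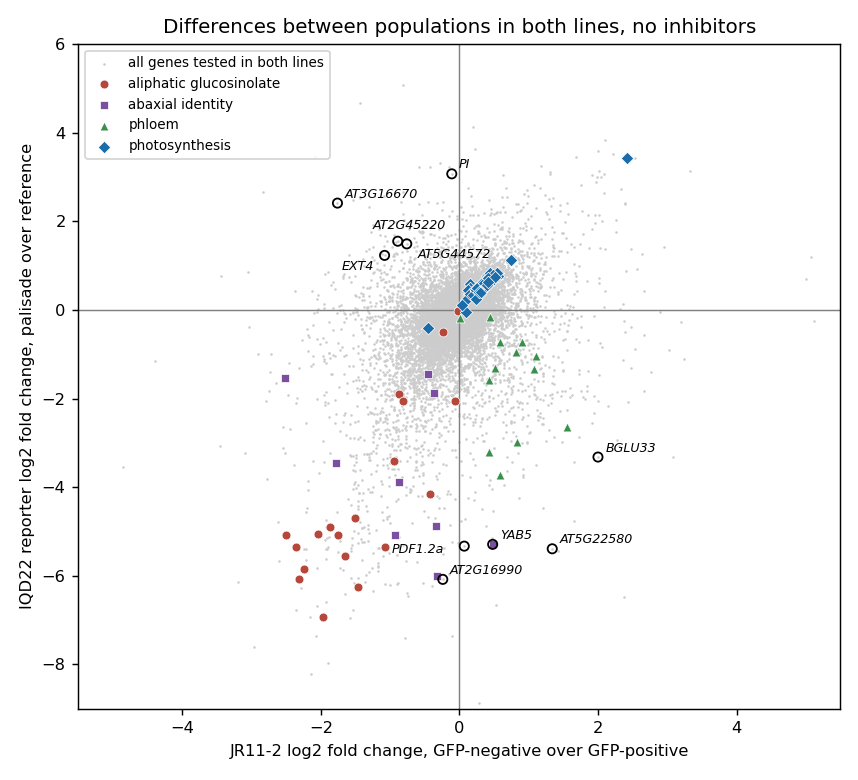
Log2 fold change in JR11-2 (GFP-negative over GFP-positive) against that in the IQD22 reporter line (palisade over reference) for genes tested in both, with named genes marked. *KAN3* lies at −2.52 and −1.53, *YAB5* at 0.48 and −5.29, and AT3G16670 at −1.76 and 2.41.

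Of 339 genes called in both lines, 53 were called in opposite directions. All 53 passed the interaction test, but it was fitted on the same libraries. Their choice by opposite calls made passing nearly certain, so it adds no evidence. In 42 of them GFP-negative cells were higher in JR11-2 and palisade cells lower in the other line. Phloem genes were among these. All 13 were above 0 in JR11-2 and below 0 in the IQD22 reporter line (medians 0.59 and −1.31), and 11 passed the interaction test. This was not particular to phloem. The epidermis list had medians of 0.61 and −1.31, with 9 genes below 0 and 4 above in the other line. The guard cell list had 0.23 and −1.83, with 5 below and 1 above. AT1G04040 and AT5G28630, epidermal by the paper's reporters, and AT1G22690, stomatal, were also among the 42, at low CPM. *AAP2*, an amino acid permease gene of the phloem, had 5.29, 13.7 and 15.1 CPM in GFP-negative and 2.31, 5.71 and 1.65 CPM in GFP-positive cells, against 0.883 CPM in palisade and 6.51 CPM in reference cells. It shared with *SUC2* the highest GFP-negative values in pools E and F. AT5G22580 had the largest interaction estimate of the genes at 5 CPM or more, 6.73 ± 0.37, with 6.32 ± 1.07 CPM in GFP-negative and 2.48 ± 0.645 CPM in GFP-positive cells, against 0.128 CPM in palisade and 5.43 CPM in reference cells.

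The reverse, lower in GFP-negative cells and higher in palisade cells, held for 11 genes. AT3G16670 had 5.58, 6.96 and 3.91 CPM in GFP-negative and 22.1, 12.1 and 24.6 CPM in GFP-positive cells, against 30.0 CPM in palisade and 5.31 CPM in reference cells of the other line (interaction −4.17 ± 0.36). The paper used AT3G16670 as a marker of a single-cell cluster assigned to hydathodes, a leaf structure. Its reporters for that cluster were active there, alone or with other cell types, and it lists auxin synthesis among that cluster's enriched processes. Whether hydathode cells entered either population was not tested. The auxin synthesis gene *TAA1* was at −1.04 in JR11-2 and 2.64 in the IQD22 reporter line (interaction −3.69 ± 0.39), and *YUC5*, near the floor in JR11-2, at −2.83 and 2.67. *YUC8*, a further synthesis gene, was not called in JR11-2 (−0.15) and was at 2.13 in the other line. *EXT4*, an extensin gene, was at −1.08 and 1.23, and its JR11-2 call was lost without pool D or pool F (−0.96 and −0.84). *IAA7* and *NPH3*, by contrast, were called higher in JR11-2, while *IAA7* stood at −0.22 and *NPH3* at 0.83 in the other line (interactions 1.78 and 0.83).

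A few genes separated the JR11-2 populations and hardly those of the other line. They were chosen after their values were seen. AT5G10290 had 4.58, 6.48 and 5.96 CPM in GFP-negative and 25.8, 29.8 and 17.5 CPM in GFP-positive cells (4.3-fold, log2 fold change −2.11 ± 0.12), against 13.4 CPM in palisade and 16.8 CPM in reference cells (−0.33, interaction −1.79 ± 0.17). *ALDH2B7*, an aldehyde dehydrogenase gene, had 0.714, 1.12 and 1.86 CPM in GFP-negative and 3.19, 5.14 and 7.39 CPM in GFP-positive cells, against 4.46 CPM in palisade and 4.47 CPM in reference cells. In neither gene did the JR11-2 populations overlap.

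Because JR11-2 had been crossed into Col-0, genes nearly silent in 1 line and expressed in the other were also sought among the 12 libraries without inhibitors. No gene with at least 5 CPM in every IQD22 reporter library was at 3 counts or fewer in every JR11-2 library, and 2 genes, AT4G32208 and AT5G15360, showed the reverse. A wider rule, chosen after the data were seen, asked for at least 2 CPM in every library of a line and at least 4-fold between the lines. With CPM taken over the nuclear total of each library, it found 8 genes, 4 lower in each line. Of these, 6 lay on chromosome 5 and spanned 3587978 to 5581311 (1.99 Mb in TAIR10.1). This span holds 347 of the 13692 genes at that level (2.53%). Its bounds were drawn from these 6 genes, so that share is no independent baseline for them, and their grouping was not tested. AT5G13210, for example, had 3.38 to 9.49 CPM in JR11-2 libraries and 125.1 to 231.7 CPM in the others, and AT5G16350 had 8.44 to 28.2 CPM in JR11-2 and at most 0.150 CPM in the others. Only AT5G16350 of the 8 was called between the JR11-2 populations, at 29.8, 21.8 and 22.2 CPM (scaled within the line) in GFP-negative and 12.4, 8.5 and 9.35 CPM in GFP-positive cells (log2 fold change 1.29 ± 0.08).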

How the data were processed

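Stranded mRNA libraries (TruSeq) of sorted leaf protoplasts were sequenced as single-end 50-base reads (Illumina HiSeq, CASAVA 1.8.2). Per the labels' processing notes, the authors used TopHat2 2.0.9, HTSeq 0.6.1 and TAIR10. They deposited raw counts per gene, and rows naming no gene (7.54 to 8.92% of reads in the 6 libraries) stayed out of library sizes. Chloroplast (133) and mitochondrial (146) genes were left out, and a gene was tested if 3 or more of the 6 libraries had 2 counts or more, with edgeR 4.0.16 (R 4.3.3): TMM scaling, quasi-likelihood F test, protoplast pool as a block, Benjamini-Hochberg adjustment. A call needed FDR below 0.05 and a fold-difference above 2, and SE was the estimate divided by the root of F. CPM used TMM-scaled library sizes of each line. The floor and the search for genes apart between the lines used library totals without TMM.

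Labels pair the libraries by pool. Deviations from the group means correlated at 0.721, 0.355 and 0.701 within pools D, E and F and at −0.650 to 0.0438 between different pools, over 20031 genes. Subtracting the group mean ties these values together, so positive values within pools force some between pools to be negative. Nothing shows that pools came from separate cultures. With the pool as a block, p-values measure how even the difference between populations was across these pools. The interaction was fitted over 12 libraries with 6 pools as blocks. Counting left out reads with several alignments, which affects near-identical genes. No chance test was run on lists.

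Genes were named by rule: the 12 largest called changes in each direction (same sign in 3 pools, at least 5 CPM), the 5 of highest CPM, called members of 20 gene lists (1 is not reported here), and the 5 largest interactions in each direction. The members and lists were chosen with earlier results of these data known. Names and promoters came from RefSeq TAIR10.1 (20003 of 20031 promoters read), and its coordinates are given only with that build. The fit was tested on simulated data. Alternatives were DESeq2 1.42.0, a likelihood ratio test, TREAT, upper-quartile scaling, other filters, organelle genes, no block, each pool left out and a promoter window of 200 bases.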

Additional observations from a re-analysis of the deposited data

Results flagged for a closer look

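The difference between populations itself differed between the lines for 3170 genes in the interaction test (edgeR's quasi-likelihood test, FDR below 0.05, 12 libraries). The genes below were named because that test was passed, and the value is the JR11-2 log2 fold change minus that of the IQD22 reporter line. Line and pool cannot be told apart in any of them.

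Among genes at 5 CPM or more in some group, the largest positive estimates were those of AT5G22580 (6.73), AT2G16990 (5.82), *YAB5* (5.76), *PDF1.2a* (5.38) and *BGLU33* (5.32). *PDF1.2a*, a defensin gene, did not separate the JR11-2 populations (12.3, 37.4 and 19.0 CPM in GFP-negative and 13.7, 33.1 and 17.2 CPM in GFP-positive cells) but had 0.0877 CPM in palisade and 3.5 CPM in reference cells. AT2G16990 was likewise at −0.24 in JR11-2 and −6.08 in the other line.

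The largest negative estimates were those of AT3G16670 (−4.17), *PI* (−3.2), AT2G45220 (−2.45), *EXT4* (−2.33) and AT5G44572 (−2.26). *PI*, a floral homeotic gene, had 0.965, 3.95 and 1.38 CPM in GFP-negative and 1.18, 2.87 and 2.69 CPM in GFP-positive cells, against 6.44 CPM in palisade and 0.787 CPM in reference cells.

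The remaining genes below were called in opposite directions in the 2 lines. *THA1* was lower in GFP-negative and higher in palisade cells (−2.12). Higher in GFP-negative and lower in palisade cells were *SUC2* (2.12), *PP2-A1* (2.41), *AAP2* (4.58), AT1G23130 (3.14), AT1G64370 (3.24), AT2G32870 (3.32), AT4G00780 (3.19) and the neighbouring genes AT1G67865 (3.71) and AT1G67870 (3.0). AT1G23130 had 25.2, 61.0 and 75.0 CPM in GFP-negative and 14.8, 27.5 and 26.4 CPM in GFP-positive cells, against 8.52 CPM in palisade and 32.4 CPM in reference cells. Its GFP-negative values were lowest in pool D, as were those of *SUC2*, *AAP2* and AT4G00780.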

How the results depend on the processing

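The fit without the replicate block called 10 genes higher and 63 lower and found 355 genes with an interaction. All 10 and all 63 were among the genes called with the block. TREAT, which tests against a fold-difference of 2, called 19 and 59. A minimum of 10 counts in every library left 82 and 186 calls, and the likelihood ratio test called 217 higher. DESeq2 called 97 and 195, of which 93 and 192 were shared. Leaving out 1 pool gave 123 to 153 genes higher, 204 to 353 lower and 1722 to 2314 with an interaction. The 8 genes apart between lines came from the wider rule, against 2 under the first. Of 71 named genes, 26 kept their call status without the block, 37 under TREAT and 64 of 68 under DESeq2. Leaving out 1 pool put the JR11-2 estimate of *PI* between −0.66 and 0.24 (without pool F) and that of *PDF1.2a* between −0.01 (without pool E) and 0.16, and neither was called. Over all genes tested, the median log2 fold change stayed between −0.02 and 0.0 under every setting. Depth limits genes under about 0.2 CPM.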
